A study of Mus musculus with 8 samples.

Results

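Base excision repair mRNAs were examined in mouse embryonic fibroblasts (MEFs, connective tissue cells grown from embryos) exposed to RHPS4, a positively charged small molecule that binds G-quadruplexes, the stacked structures formed by guanine-rich DNA or RNA. The 10 genes were chosen by name, as core components of the pathway, and not by a cut on their values: Ung, Ogg1, Neil1, Mutyh, Apex1, Polb, Xrcc1, Lig1, Lig3 and Fen1. Earlier results of these data were known when the genes and the lists set beside them were chosen. All 10 were among the 24460 genes in the count files and all 10 passed the filter on low counts, which left 14296 genes to test. Wild type MEFs were grown without RHPS4 (0 µM, 3 libraries) or with 2 µM (3 libraries) or 10 µM (2 libraries) in the same medium. The labels do not say which of the listed exposure times each library had, nor whether libraries of a group came from separate cultures or embryos, so the p-values measure the spread between these libraries, which may be technical.

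Base excision repair removes small base lesions such as oxidised, deaminated or lost bases. A DNA glycosylase cuts out the damaged base, an AP endonuclease nicks the strand at the empty site, a polymerase refills the gap and a ligase seals it. In the short-patch route a single base is replaced by DNA polymerase beta, with XRCC1 as scaffold and LIG3 as ligase, whereas in the long-patch route several bases are replaced, the displaced flap is cut by FEN1 and LIG1 closes the nick. FEN1 and LIG1 do the same work on Okazaki fragments in replicating nuclear DNA, and UNG, OGG1, NEIL1, MUTYH, APEX1, LIG3 and other components are also known to act on mitochondrial DNA.

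Total counts ran from 10455965 to 26688121 per library, for which 3 counts, the limit that a count of 0 allows, correspond to 0.287 and 0.112 CPM, the usual measure of counts relative to library size. Such limits cover counting error only. The share of counts from mtDNA was 13.2 to 14.4% at 0 µM, 7.40 to 8.26% at 2 µM and 5.33 to 6.32% at 10 µM. The summed level of 10 fibroblast markers was 13756 to 14226 CPM at 0 µM, 12459 to 12788 CPM at 2 µM and 12066 to 12605 CPM at 10 µM. That of 16 markers of other cell types was 16.8 to 20.8, 18.4 to 19.7 and 24.2 to 28.0 CPM, with none of the 16 at 0 in every library. The neuronal marker Tubb3 rose from a mean of 2.80 CPM at 0 µM to 7.30 CPM at 10 µM (log2 fold change 1.42, adjusted p = 0.000351) by the edgeR test described with the results. Rbfox3, the other neuronal marker of the list, did not rise, with means of 0.991 CPM at 0 µM and 0.801 CPM at 10 µM. By the same edgeR test the fibroblast marker Pdgfrb fell at 10 µM (-0.60, adjusted p = 0.000248). The part of these markers in the results was not tested.

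At 10 µM, Ung mRNA fell to 0.585 of its 0 µM level, and Fen1 and Lig1 mRNA had values of 0.706 and 0.729 of theirs. Polb stood at 1.27, Neil1 at 1.29 and the others between 0.904 and 1.03. Only Ung passed the test against 0 µM at this dose, and it did not in 6 of 16 alternative settings. Ung and Fen1 fell between 2 and 10 µM, to 0.445 and 0.596. At 2 µM none of the 10 passed the test against 0 µM, and Ung, at 1.32 of its 0 µM level, had the largest estimate. Of all genes tested, 3.09% were called at 10 against 0 µM, 5.51% at 10 against 2 µM and 0.497% at 2 against 0 µM. The test was edgeR's quasi-likelihood test on all genes with Benjamini-Hochberg adjustment, and a gene was called when the adjusted p was under 0.01 and the fold change over 1.5. CPM values are scaled by TMM, a normalization that assumes that most genes do not differ between libraries. The 2 and 10 µM comparisons share the same 0 µM libraries, so their values are set side by side and not treated as separate evidence. In bulk RNA, fewer cells expressing a gene and less of its mRNA per cell cannot be told apart.

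**Figure D1:**
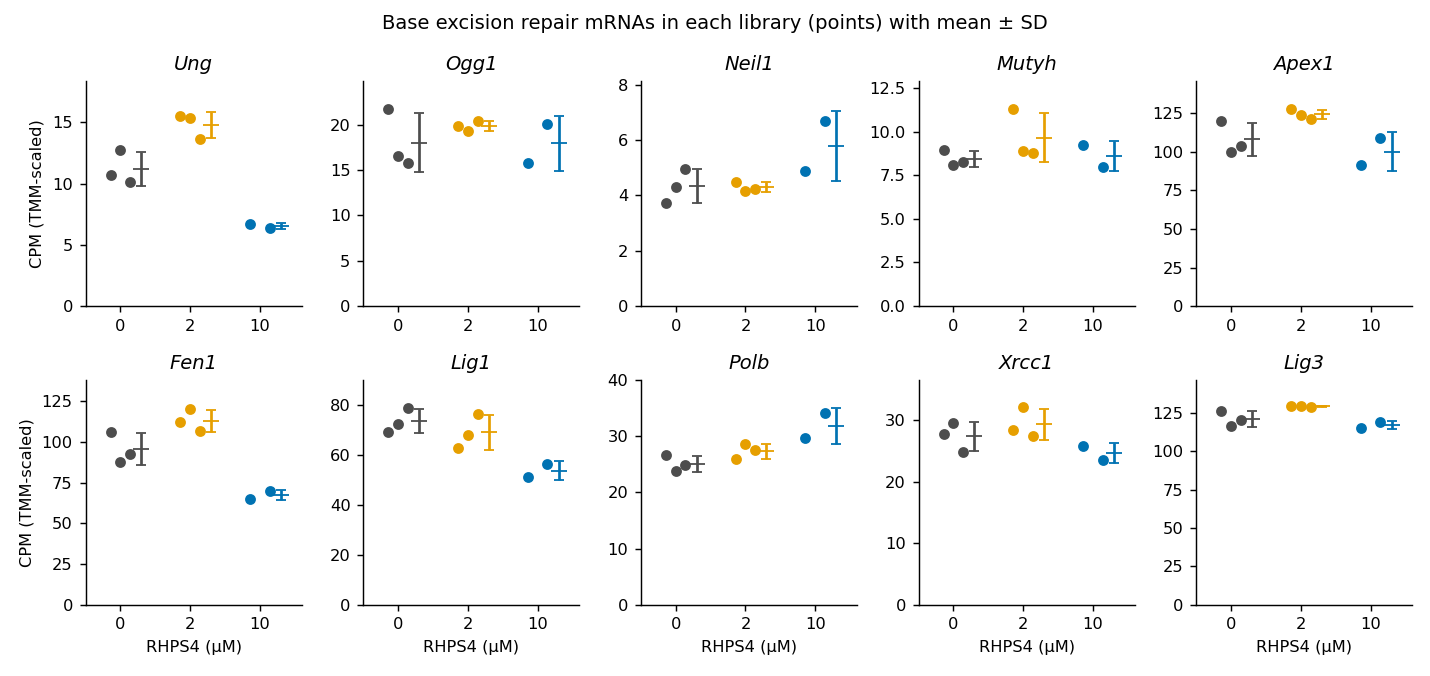
Levels of the 10 base excision repair mRNAs in CPM (vertical axes, each from 0) against RHPS4 dose in µM, with 1 point per library and the mean ± SD of each group beside its points (n = 3, 3 and 2). Both 10 µM libraries of Ung, Fen1 and Lig1 lie below every 0 µM library, and both of Polb lie above. Among all genes tested, the 10 and 0 µM groups do not overlap for 42.9%.

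RHPS4 binds guanine-rich folds, and the genes were to be placed in the genome. The sequences before the annotated starts are therefore shown for the 3 genes with the lowest fold changes at 10 against 0 µM. They are RefSeq sequences on GRCm38.p6, 5′ to 3′ on the strand of the gene, limited to the longest stretch within the 250 bases before a start that no annotated exon covers. Capitals mark GGGCGG, the letters of a GC box, on either strand. Ung is at chr5:114130185-114130385 on the plus strand, Fen1 at chr19:10204394-10204643 on the minus strand and Lig1 at chr7:13279015-13279264 on the plus strand. Fen1 and Lig1 have other RefSeq starts too, whose sequences are not shown. The Fen1 stretch does not adjoin the annotated gene (chr19:10199132-10204169), and annotated exons cover the 250 bases before the other Fen1 start. Tmem258 starts on the other strand, 155 bases from the start of the annotated Fen1 gene. The Lig1 stretch lies inside the annotated gene (chr7:13277283-13311433). It is not from the Lig1 window with the G-quadruplex match and the E2F letters given below (chr7:13278576-13278875).
Ung: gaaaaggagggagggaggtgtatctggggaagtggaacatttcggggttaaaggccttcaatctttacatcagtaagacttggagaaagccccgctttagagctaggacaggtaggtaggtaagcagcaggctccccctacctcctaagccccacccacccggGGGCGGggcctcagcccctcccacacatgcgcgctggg
Fen1: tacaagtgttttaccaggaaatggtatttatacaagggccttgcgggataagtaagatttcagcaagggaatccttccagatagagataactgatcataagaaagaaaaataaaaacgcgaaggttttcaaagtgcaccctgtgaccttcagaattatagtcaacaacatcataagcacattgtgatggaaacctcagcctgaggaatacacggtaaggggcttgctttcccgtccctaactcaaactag
Lig1: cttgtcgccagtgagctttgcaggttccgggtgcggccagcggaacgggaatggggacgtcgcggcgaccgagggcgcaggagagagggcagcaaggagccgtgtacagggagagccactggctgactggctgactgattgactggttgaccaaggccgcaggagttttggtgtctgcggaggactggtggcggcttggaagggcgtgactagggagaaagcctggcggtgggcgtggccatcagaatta

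RefSeq windows of 300 bases (250 before and 50 after a start) were found for 9 of the 10 genes, 13 windows in all. Searched on both strands, GGGCGG was present in 7 of the 13 windows and in 6 of the 9 genes (Apex1, Lig1, Lig3, Mutyh, Ogg1 and Ung), against 35.7% of all 32851 mouse windows. A pattern of 4 runs of 3 or more G with loops of 1 to 7 bases, the usual search for a G-quadruplex, matched 1 window, that of Lig1 at chr7:13278576-13278875, against 18.6% of all windows. The same Lig1 window was the only one to hold one of the letter strings TTTCCCGC, TTTGGCGC, TTTCGCGC or TTTGCCGC, which E2F factors are known to bind (TTTCGCGC, after the start), against 2.26% of all windows. CCAAT was in 5 of the 13 windows, in Apex1, Mutyh, Ogg1 and Xrcc1, against 37.4% of all. These matches describe the letters in the windows and were not tested for binding.

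Ung encodes the uracil DNA glycosylase, which removes uracil from DNA (chr5:114130386-114139323, plus strand). Its mRNA was at 10.7, 12.8 and 10.1 CPM in the 0 µM libraries, 15.5, 15.3 and 13.6 CPM in the 2 µM libraries and 6.72 and 6.40 CPM in the 10 µM libraries. The groups thus did not overlap: the 2 µM libraries were highest, the 10 µM libraries lowest. The log2 fold change was 0.40 (SE 0.115, 95% interval 0.14 to 0.65) at 2 µM, with an adjusted p of 0.0789 by edgeR's quasi-likelihood test. At 10 µM it was -0.77 (SE 0.141, interval -1.08 to -0.46, adjusted p = 0.00496), lower in 2 of 2 libraries, and 1.42% of all genes tested had a lower value. Between 2 and 10 µM it was -1.17 (SE 0.141, interval -1.48 to -0.86, adjusted p = 0.0003 by the same test), with 0.224% of genes lower. Raw counts of Ung ran from 89 to 258 per library, among the lowest of the 10 genes.

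The 10 µM call of Ung against 0 µM depended on single libraries. It was lost without 0 µM replicate 2 (log2 fold change -0.68, adjusted p = 0.0187 by edgeR's quasi-likelihood test), without 2 µM replicate 2 (-0.77, adjusted p = 0.0116), without 10 µM replicate 1 (-0.84, adjusted p = 0.0234) and without 10 µM replicate 2 (-0.77, adjusted p = 0.0393). Where 1 library was left at 10 µM, it was assumed to vary like the other groups. With the 39 mtDNA features, whose share of counts differed between doses, left out of the scaling, it was kept (-0.77). The call between 2 and 10 µM was kept in all 16 alternative settings, with log2 fold changes from -1.25 to -1.03.

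Ogg1, the glycosylase for 8-oxoguanine (chr6:113326972-113335068, plus strand), was at 21.7, 16.6 and 15.8 CPM at 0 µM, 19.8, 19.3 and 20.4 CPM at 2 µM and 15.8 and 20.1 CPM at 10 µM. Replicates of 0 µM and of 10 µM differed by more than the group means did, and the groups overlapped. Log2 fold changes of Ogg1 were 0.17 (interval -0.12 to 0.45) at 2 µM and 0.02 (interval -0.30 to 0.34) at 10 µM, with adjusted p = 0.485 and 0.952 by edgeR's quasi-likelihood test, and the sign of the latter changed between settings.

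Neil1, a glycosylase for oxidised pyrimidines (chr9:57142800-57148305, minus strand), was at 3.74, 4.31 and 4.96 CPM at 0 µM, 4.50, 4.16 and 4.22 CPM at 2 µM and 4.88 and 6.69 CPM at 10 µM. The higher 10 µM library lay above all others and the lower one within the 0 µM range. The log2 fold changes were -0.05 (interval -0.42 to 0.31, adjusted p = 0.887) at 2 µM and 0.37 (interval -0.02 to 0.75, adjusted p = 0.186) at 10 µM by edgeR's quasi-likelihood test, and the latter was 0.11 without 10 µM replicate 2 and 0.56 without 10 µM replicate 1. With 36 to 125 counts per library, Neil1 was the least covered of the 10 genes and its intervals were the widest.

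Mutyh, the glycosylase that removes adenine paired with 8-oxoguanine (chr4:116807723-116819440, plus strand), was at 8.93, 8.08 and 8.26 CPM at 0 µM, 11.3, 8.89 and 8.80 CPM at 2 µM and 9.22 and 7.99 CPM at 10 µM. Apart from 1 library at 2 µM, the libraries lay within a narrow range and the groups overlapped. Mutyh had log2 fold changes of 0.20 (interval -0.08 to 0.48, adjusted p = 0.399) and 0.05 (interval -0.27 to 0.36, adjusted p = 0.867) by edgeR's quasi-likelihood test. Of the 4 glycosylases, Ung was thus the only one called in any comparison, and its difference from the others was measured only as the ratio to Ogg1.

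The ratio of Ung to Ogg1 counts within a library does not depend on the scaling between libraries. Its log2 value was -1.02, -0.37 and -0.64 in the 0 µM libraries, -0.35, -0.33 and -0.58 in the 2 µM libraries, then -1.23 and -1.64 in those of 10 µM. Both 10 µM libraries were below every 0 µM library, by 0.76 on average with a pooled SD of 0.314 (-0.97 to -0.56 when single libraries were left out), while the 2 µM group overlapped the 0 µM group. The two-sided exact permutation test gave p = 0.2 for both doses, which at 10 µM is the smallest p that 3 libraries against 2 allow.

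Apex1 encodes the main AP endonuclease, which nicks DNA at sites without a base (chr14:50924968-50927139, plus strand). Its mRNA was at 120.2, 99.9 and 104 CPM at 0 µM, 128, 124 and 121 CPM at 2 µM and 91.2 and 109 CPM at 10 µM. All 2 µM libraries were above the 0 µM libraries, the closest by less than 2 CPM, and the 10 µM group overlapped the 0 µM group. By edgeR's quasi-likelihood test the log2 fold changes were 0.21 (adjusted p = 0.216) at 2 µM, -0.11 (interval -0.33 to 0.11, adjusted p = 0.512) at 10 µM and -0.31 (adjusted p = 0.0444) between 2 and 10 µM, none of them called. The last was -0.23 without 10 µM replicate 1 (adjusted p = 0.204) and -0.48 without 10 µM replicate 2 (adjusted p = 0.0278), and its adjusted p exceeded 0.05 when any of 5 of the 8 libraries was left out.

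Polb encodes DNA polymerase beta, which fills the gap in short-patch repair (chr8:22628126-22653435, minus strand). Its mRNA was at 26.7, 23.8 and 24.8 CPM at 0 µM, 25.9, 28.5 and 27.6 CPM at 2 µM and 29.6 and 34.1 CPM at 10 µM. Both 10 µM libraries were above every other library. The log2 fold change at 10 µM was 0.35 (SE 0.0973, interval 0.13 to 0.56), and its adjusted p of 0.0363 by edgeR's quasi-likelihood test and fold of 1.27 did not meet the limits for a call. Without 10 µM replicate 2 the value was 0.22 (adjusted p = 0.338), and the adjusted p exceeded 0.05 when any of 6 of the 8 libraries was left out. At 2 µM it was 0.13 (adjusted p = 0.429).

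Fen1 encodes the flap endonuclease of long-patch repair and of Okazaki fragments (chr19:10199132-10204169, minus strand). Its mRNA was at 106, 87.8 and 92.6 CPM at 0 µM, 112, 120.1 and 107 CPM at 2 µM and 65.1 and 69.6 CPM at 10 µM. The 10 µM libraries were the lowest and clear of both other groups, whereas the lowest 2 µM library was level with the highest 0 µM library to within 1 CPM. The log2 fold changes were 0.24 (SE 0.0847, adjusted p = 0.13) at 2 µM, -0.50 (SE 0.0967, interval -0.71 to -0.29, adjusted p = 0.00667) at 10 µM and -0.75 (SE 0.0973, interval -0.96 to -0.53, adjusted p = 0.000461) between 2 and 10 µM by edgeR's quasi-likelihood test. Only the last was a call, since the fold at 10 against 0 µM was under 1.5, and it held in all 16 alternative settings (-0.83 to -0.61).

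The log2 ratio of Fen1 to Polb counts, the flap endonuclease of the long patch to the polymerase of the short patch, was computed in the same way. It was 1.99, 1.88 and 1.90 in the 0 µM libraries, 2.11, 2.07 and 1.95 in the 2 µM libraries, then 1.14 and 1.03 in those of 10 µM. The 10 µM libraries lay 0.84 below the 0 µM mean with a pooled SD of 0.0659, and the difference stayed between -0.89 and -0.79 when any library was left out. The two-sided exact permutation test gave p = 0.2, again the smallest possible for 3 against 2, and at 2 µM the difference was 0.12 with overlapping groups (exact permutation p = 0.2).

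**Figure D2:**
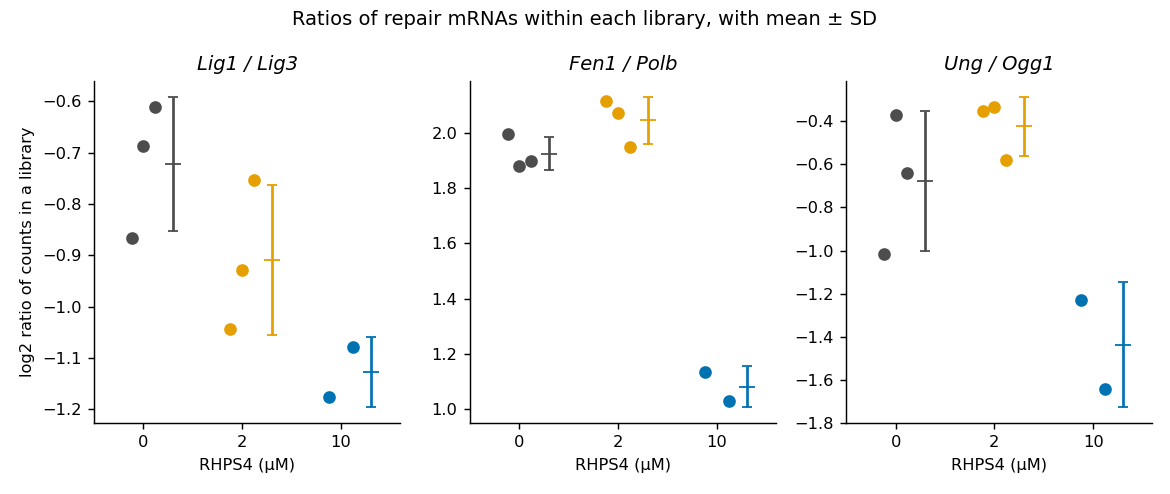
Log2 ratios of counts within each library for Lig1 to Lig3, Fen1 to Polb and Ung to Ogg1 (vertical axes) against RHPS4 dose in µM, with 1 point per library and the mean ± SD beside it (n = 3, 3 and 2). In each panel both 10 µM libraries lie below every 0 µM library. Ung, Fen1 and Lig1 were each lower and Polb higher on their own, so the ratios are not separate evidence. For levels of single genes, the 10 and 0 µM groups do not overlap for 42.9% of all genes tested.

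Xrcc1, the scaffold that holds the short-patch enzymes (chr7:24546289-24573440, plus strand), was at 27.7, 29.4 and 24.9 CPM at 0 µM, 28.4, 32.0 and 27.4 CPM at 2 µM and 25.8 and 23.5 CPM at 10 µM. The groups overlapped at either dose against 0 µM. Neither dose was called, with log2 fold changes of 0.10 (interval -0.11 to 0.31, adjusted p = 0.593) and -0.15 (interval -0.38 to 0.09, adjusted p = 0.409) by edgeR's quasi-likelihood test.

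Lig1 encodes the ligase of replication and long-patch repair (chr7:13277283-13311433, plus strand). Its mRNA was at 69.4, 72.4 and 78.8 CPM at 0 µM, 62.7, 68.1 and 76.4 CPM at 2 µM and 51.0 and 56.4 CPM at 10 µM. The 10 µM libraries were below all others, and the 2 µM group overlapped the 0 µM group. The log2 fold changes were -0.09 (interval -0.28 to 0.10, adjusted p = 0.595) at 2 µM and -0.46 (interval -0.68 to -0.24, adjusted p = 0.0127) at 10 µM by edgeR's quasi-likelihood test, so Lig1 was not called.

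Lig3 encodes the ligase of short-patch repair and the ligase of mitochondria (chr11:82781108-82804274, plus strand). Its mRNA was at 127, 117 and 120.3 CPM at 0 µM, 129, 129.6 and 129 CPM at 2 µM and 115 and 119 CPM at 10 µM. Over all 8 libraries its range was 115 to 129.6 CPM, with the 2 µM group above and the 10 µM group overlapping 0 µM. The log2 fold changes were 0.09 (interval -0.04 to 0.23, adjusted p = 0.418) and -0.05 (interval -0.20 to 0.11, adjusted p = 0.708) by edgeR's quasi-likelihood test, the narrowest intervals of the 10 genes.

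The log2 ratio of Lig1 to Lig3 was -0.87, -0.69 and -0.61 in the 0 µM libraries, -1.04, -0.93 and -0.75 in the 2 µM libraries, then -1.18 and -1.08 in those of 10 µM. The 10 µM libraries were below every 0 µM library, by 0.41 on average with a pooled SD of 0.114, and the 2 µM libraries overlapped them with a mean difference of -0.19. Exact permutation tests gave p = 0.2 for both doses, and Benjamini-Hochberg adjustment over the 6 ratio tests left all at 0.2.

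**Figure D3:**
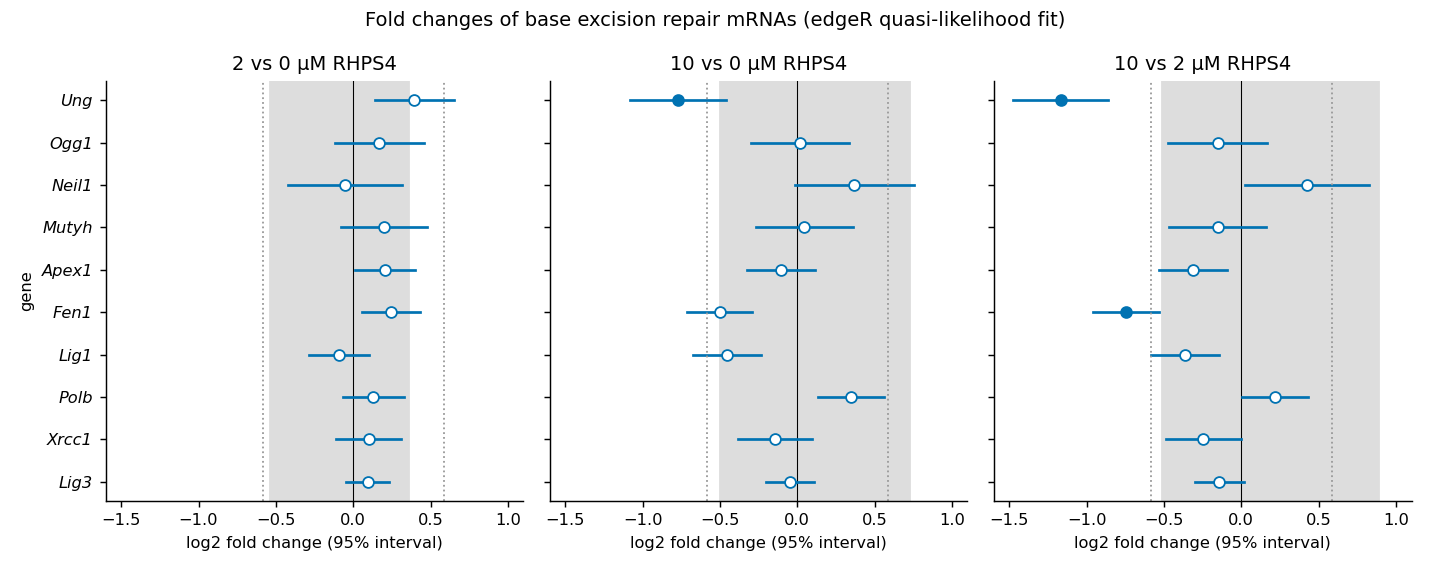
Log2 fold changes (horizontal axes) with 95% intervals of the 10 genes for 2 against 0, 10 against 0 and 10 against 2 µM RHPS4, from edgeR's quasi-likelihood fit. Filled points were called, dotted lines mark a fold of 1.5 and the grey band spans the 5th to 95th percentile of all 14296 genes, which Ung and Fen1 leave on the low side in both 10 µM panels (Fen1 narrowly at 10 against 0 µM, where 4.90% of genes had smaller values) and Ung on the high side at 2 against 0 µM.

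Over the 10 genes, 0 were called at 2 against 0 µM by edgeR's quasi-likelihood test, where 0.497% of all genes were called. DESeq2 also called 0, and 3 of the 10 (Ung, Apex1 and Fen1, all higher) had an unadjusted p under 0.05, against 21.3% of all genes. At an adjusted p under 0.05 with any fold the count was still 0, against 4.16%. At 10 against 0 µM 1 of the 10 was called (Ung, lower), against 3.09% of all genes, or 1.14% in the lower direction. With an adjusted p under 0.05 at any fold the count was 4 (Ung, Lig1 and Fen1 lower, Polb higher), against 13.9%, although Lig1 passed 0.05 neither without 0 µM replicate 3 (-0.40, adjusted p = 0.0526) nor without 10 µM replicate 1 (-0.42, adjusted p = 0.0706). Between 2 and 10 µM 2 of the 10 were called (Ung and Fen1, both lower), against 5.51% of all genes, or 1.59% in the lower direction, and 4 had an adjusted p under 0.05 (Ung, Apex1, Lig1 and Fen1, all lower), against 23.4%. The others not called there were Neil1 (0.42, adjusted p = 0.117), Polb (0.22, adjusted p = 0.132), Xrcc1 (-0.24, adjusted p = 0.129), Lig3 (-0.14, adjusted p = 0.178), Ogg1 (-0.15, adjusted p = 0.495) and Mutyh (-0.15, adjusted p = 0.482), and Lig1 was at -0.37 (adjusted p = 0.0231).

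Groups did not overlap for 4 of the 10 at 2 against 0 µM (Ung, Apex1, Lig3 and Fen1, all higher), against 25.7% of all genes. They did not overlap for 4 at 10 against 0 µM (Ung, Lig1 and Fen1 lower, Polb higher), a share near the 42.9% of all genes. At 10 against 2 µM this held for 8, all but Ogg1 and Mutyh, against 51.8%. The median log2 fold change of the 10 genes was 0.15, -0.08 and -0.20 in the 3 comparisons, beside -0.01, 0.02 and 0.03 for all genes tested. Scaling by total counts alone moved the median of all genes to 0.23 at 10 against 0 µM. Relative to that median Ung was at -0.79, Fen1 at -0.51, Lig1 at -0.47 and Polb at 0.33, beside -0.79, -0.52, -0.47 and 0.33 under TMM. A change of scaling moves all genes by nearly the same amount, so these positions were bound to stay close and test nothing.

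Per kilobase of annotated exon, Apex1 was the most abundant of the 10 mRNAs and Ung the least at 0 µM. The length is that of all annotated exons of a gene together and not of the transcripts present. Without length scaling, Neil1 (4.34 CPM) and Mutyh (8.42 CPM) were below Ung (11.2 CPM). The levels were 75.9 ± 7.57 CPM per kilobase for Apex1 and 39.5 ± 3.98 for Fen1 (SD, n = 3). Lig1 and Lig3 followed at 17.2 ± 1.12 and 16.6 ± 0.688 CPM per kilobase, closer to each other than the sum of their SDs. Ogg1 stood at 8.23 ± 1.47, Polb at 6.37 ± 0.366, Xrcc1 at 4.69 ± 0.397, Mutyh at 3.22 ± 0.171, Neil1 at 2.32 ± 0.328 and Ung at 2.05 ± 0.257 CPM per kilobase, of which Neil1 and Ung also lay within the sum of their SDs. At 10 µM (n = 2) the length-scaled level of Lig1 was 12.6 ± 0.888, below that of Lig3 at 16.1 ± 0.369, and Ung at 1.20 ± 0.0405 was below Neil1 at 3.09 ± 0.683. Polb at 8.09 ± 0.805 was then level with Ogg1 at 8.20 ± 1.38 CPM per kilobase.

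**Figure D4:**
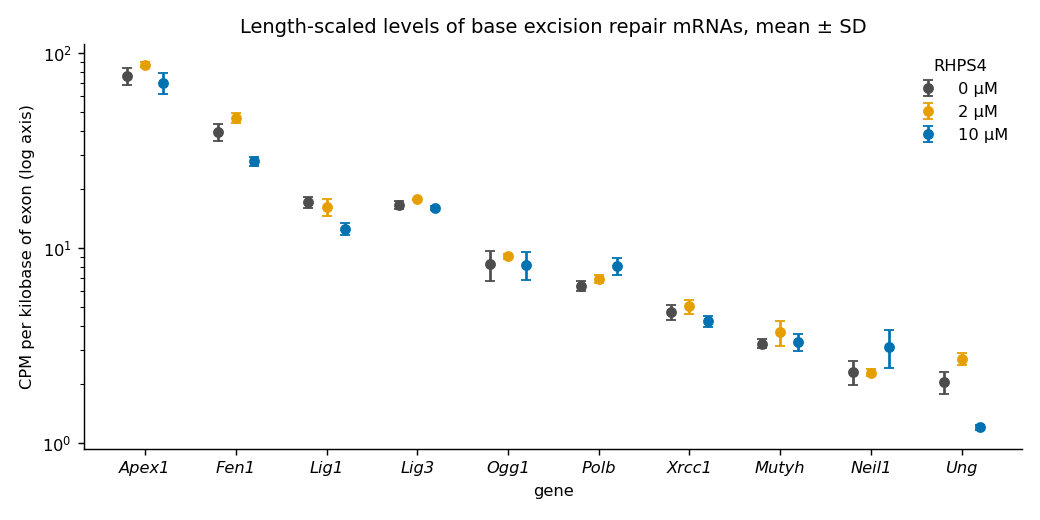
Length-scaled levels of the 10 mRNAs in CPM per kilobase of exon (log axis), as mean ± SD at 0 µM (n = 3), 2 µM (n = 3) and 10 µM RHPS4 (n = 2), ordered by the 0 µM level. Apex1 is highest at every dose, and the 10 µM value of Ung, 1.20, is the lowest of the plot.

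Several of the 10 genes share genomic sequence with a gene on the other strand. Whether the authors' counting used the strand of the reads is not given in the sources used here, although the libraries were stranded. Without it, reads in the overlaps cannot be told apart. Exons of Fen1 overlap the antisense gene Gm10143 over 78.8% of their length and Tmem258 over 5.37%, those of Apex1 overlap Pip4p1 (listed as Tmem55b) over 61.7%, those of Lig3 overlap Rffl over 25.1%, and those of Ogg1 overlap Camk1 over 10.6%. Overlaps of Lig1 with Zswim9 (5.79%) and of Polb with Gm26909 (1.14%) were smaller, and Ung, Neil1, Mutyh and Xrcc1 had none. No stretch of 75 bases, the read length, of any of the 10 was shared with another annotated transcript on the same strand.

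Some neighbours had values of their own. Gm10143, which overlaps most of the Fen1 exon length, was not among the counted genes under that name, nor were Zswim9, Gm26909 and Gm15492. At 10 against 0 µM Tmem258 had a log2 fold change of 0.01 (adjusted p = 0.952) and Tmem55b of -0.22 (adjusted p = 0.383), whereas Rffl had 0.51 (adjusted p = 0.0386) and Camk1 0.42 (adjusted p = 0.0172) by edgeR's quasi-likelihood test, beside -0.05 for Lig3 and 0.02 for Ogg1. Osgep, which starts 75 bases from Apex1 on the other strand, was at 16.5, 16.2 and 14.8 CPM at 0 µM and 21.7 and 25.4 CPM at 10 µM. Its 10 µM libraries were thus above every 0 µM library (log2 fold change 0.58, adjusted p = 0.00696, fold 1.49, just short of a call), whereas those of Apex1 overlapped. Toe1, 83 bases from the start of Mutyh, was at -0.04 beside 0.05 for Mutyh. Gm11423, 66 bases from the start of Lig3, was at 0.46 (adjusted p = 0.293). Pinlyp, 171 bases from Xrcc1, and Gm15492, 225 bases from Ogg1, were not tested.

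The other genes listed for the pathway were 42 further glycosylases, end-processing enzymes, polymerases and accessory factors. They include subunits of the replicative polymerases and of the clamp loader, which also serve DNA replication. Of the 42 genes 40 were tested, the exceptions being the glycosylase genes Tdg and Neil2 with at most 11 and 10 counts in any library. Their median log2 fold changes in the same order of comparisons were 0.15, -0.06 and -0.21, beside 0.15, -0.08 and -0.20 for the 10 genes. By edgeR's quasi-likelihood test 0 of 40 were called at either dose against 0 µM, where 14 (2 µM) and 12 (10 µM) had an unadjusted p under 0.05, against 21.3 and 29.4% of all genes, and DESeq2 called 0 and 1. Between 2 and 10 µM 2 of 40 were called, both lower, a share near the 5.51% of all genes called.

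These 2 were Rfc5, a subunit of the clamp loader, and Dna2, a nuclease and helicase that trims flaps. Dna2 was at 28.0, 28.3 and 27.0 CPM at 0 µM, 29.9, 28.9 and 33.7 CPM at 2 µM and 17.8 and 19.4 CPM at 10 µM, with the 10 µM libraries below all others. Its log2 fold change was -0.58 at 10 against 0 µM (SE 0.0999, adjusted p = 0.0036, just short of the fold limit) and -0.74 at 10 against 2 µM (adjusted p = 0.000592) by edgeR's quasi-likelihood test. Rfc5 was at 92.6, 85.3 and 84.2 CPM at 0 µM, 112, 105 and 100.0 CPM at 2 µM and 68.9 and 66.2 CPM at 10 µM, and so had the same order of groups as Ung and Fen1, with log2 fold changes of 0.27 at 2 µM (adjusted p = 0.0557), -0.37 at 10 µM (adjusted p = 0.0128) and -0.64 between them (adjusted p = 0.000397).

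Those next by p were not called. At 2 against 0 µM they were Pole4 and Pold1, subunits of the replicative polymerases (0.30 and 0.21), and Polg, the mitochondrial DNA polymerase (0.25), with adjusted p from 0.0548 to 0.126 by edgeR's quasi-likelihood test. At 10 against 0 µM they were Parp1, which senses strand breaks (-0.31, adjusted p = 0.048), and its relative Parp3 (0.40, adjusted p = 0.0288), of opposite sign. At 10 against 2 µM they were Parp1 (-0.50, adjusted p = 0.00354) and Dut, the dUTPase that keeps uracil out of DNA (-0.57, adjusted p = 0.00355).

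A list of 26 genes of DNA replication and S phase was set beside the repair genes, because Fen1 and Lig1 belong to both processes. The list of other repair genes also holds replication genes, so these lists do not separate repair from replication. All 26 were tested, and their median log2 fold changes were 0.18 at 2 against 0 µM, -0.35 at 10 against 0 µM and -0.47 at 10 against 2 µM. With TMM scaling, where the median of all genes stood at 0.02, 26 of 26 had values below 0 at 10 against 0 µM. With total counts alone, where that median stood at 0.23, 17 of 26 did. By edgeR's quasi-likelihood test 0, 1 and 8 of the 26 were called in the 3 comparisons, against 0.497, 3.09 and 5.51% of all genes. The share at 10 against 0 µM was thus near that of all genes. For the first comparison, 13 had an unadjusted p under 0.05, against 21.3% of all genes, and DESeq2 called 0. Cdc6, which loads the replicative helicase, fell at 10 against 0 µM (-0.63, SE 0.0876, adjusted p = 0.000991). It also fell between 2 and 10 µM, and among the others called there were Mcm5, Rrm2, Ccne1, Ccne2, Uhrf1 and Chaf1b, with log2 values from -1.04 (Ccne2) to -0.63 (Chaf1b). The cyclin E genes Ccne2 and Ccne1 had the smallest p at 2 against 0 µM (0.49 and 0.32, adjusted p = 0.0246 and 0.0479), followed by Prim1 (0.27) and Cdc6 (0.24), none called. At 10 against 0 µM those next by p were Mcm4 (-0.50), Ccne1 (-0.57) and Uhrf1 (-0.51). The part of this list in the values of Ung, Fen1 and Lig1 was not tested.

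**Figure D5:**
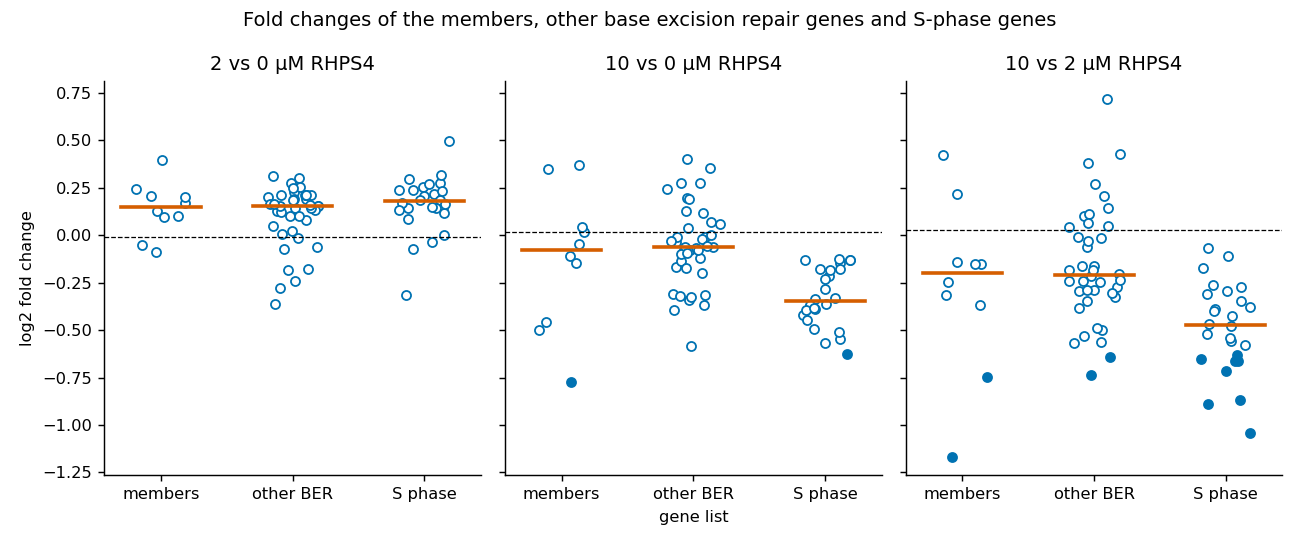
Log2 fold changes (vertical axis) of the 10 genes (members), the other base excision repair genes (other BER, 40 tested) and the S-phase genes (26), for the 3 comparisons. Each point is 1 gene, filled where called, orange bars are list medians and the dashed line is the median of all genes tested; all S-phase points lie below 0 in the 10 µM panels with TMM scaling, and 17 of 26 at 10 against 0 µM with total counts alone.

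Among 14295 other genes, those nearest to Ung in their pattern over the 8 libraries were found by the Euclidean distance of log2 CPM, each gene centred on its own 0 µM mean. They were Ccne1 (distance 0.426), Mfsd2a (0.464), Pla2g4c (0.476), Clspn (0.481) and Il4ra (0.495). Ccne1 encodes cyclin E1, Mfsd2a a lipid transporter, Clspn the checkpoint adaptor claspin and Il4ra an interleukin receptor chain. In all 5 the 2 µM mean lay above the 0 µM mean, by 0.19 to 0.33 on the log2 scale, and the 10 µM mean below it, by -0.69 to -0.57, which is the pattern the search selected for.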

How the data were processed

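Stranded libraries depleted of nuclear rRNA were made from MEFs at 0, 2 and 10 µM RHPS4. Per the submitters' notes and methods, the authors trimmed the reads (Trim Galore, cutadapt), aligned them to mm10 with STAR 2.5.2a and deposited raw counts per gene from featureCounts. The annotation and strand setting are not given in the sources used here. Total counts ran from 10455965 to 26688121, and pairs of replicates differed by more than sampling noise (chi-square per degree of freedom 3.62 to 24.1), so no pair was merged as a repeat deposit of 1 library. Whether the libraries are independent cultures is not known. No column was of another series.

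Counts were fitted with edgeR 4.0.16 in R 4.3.3 (TMM, filterByExpr, glmQLFit, glmQLFTest) over all 8 libraries with dose as the only factor, and p-values were adjusted by Benjamini-Hochberg over 14296 genes. A call needed an adjusted p under 0.01 and a fold over 1.5, the study's thresholds. The SE is the log2 fold change divided by the square root of F. The fit was tested on simulated data. Ratios used 0.5 added to each count and exact permutation tests (scipy 1.17.1, Python 3.11.15). Gene positions and exon lengths are from GENCODE vM21 on GRCm38, the assembly named mm10, and promoter sequences from RefSeq on GRCm38.p6.

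All 10 genes are named. From the other repair and S-phase lists, genes are named if called in any comparison or among the 4 with the smallest p in one, with neighbours within 1000 bases and the 5 genes nearest to Ung. A gene that this rule names is not reported here. The genes and lists were chosen with earlier results of these data known. The alternatives were RLE size factors, TMM on nuclear genes, total counts only, no filter, 10 counts in every library, DESeq2 1.42.0, only the groups compared, a replicate block, other thresholds, and leaving out each library.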

Additional observations from a re-analysis of the deposited data

How the results depend on the processing

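Of 480 alternative values for the 10 genes, 460 kept their sign and side of the threshold, 6 lost a call (all Ung at 10 against 0 µM) and 14 changed sign, all of genes that were not called. The Ung value was -0.56 with total counts only (adjusted p = 0.0169 by edgeR's quasi-likelihood test) and -0.77 when the 2 µM libraries were left out of the fit (adjusted p = 0.0188). DESeq2 gave -0.81 (adjusted p = 0.000607). Leaving out single libraries gave -0.85 to -0.68. With total counts only, under which the median of all genes stood at 0.23 instead of 0.02 at 10 µM, Apex1 was at 0.11, Xrcc1 at 0.069 and Lig3 at 0.17, and Neil1 at 0.023 at 2 µM. Ogg1 at 10 µM was -0.023 without a filter, -0.026 by DESeq2 and -0.19 to 0.15 without single libraries. Mutyh at 10 µM was -0.10 to 0.11 and Neil1 at 2 µM -0.11 to 0.067 without single libraries.

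Of the 10 genes, 0 were called at 10 against 0 µM with total counts only or only the 2 groups compared, 2 at an adjusted p under 0.01 with no minimum fold, 4 at 0.05, and 0 to 1 without single libraries. At 10 against 2 µM 4 passed 0.05. Of the other repair genes, 1 was called at 10 against 0 µM with RLE, no filter, DESeq2 or no minimum fold, lower in each. With total counts 1 was called too, but higher. At 0.05, 4 passed, and 0 to 1 were called without single 0 or 2 µM libraries. At 10 against 2 µM there were 4 with no filter or DESeq2, 9 with no minimum fold, 15 at 0.05 and 2 to 4 without single libraries. S-phase calls at 2 against 0 µM were 2 at 0.05 and 0 to 1 without single libraries (1 without 0 µM replicate 1). At 10 against 0 µM they were 2 with RLE, 0 with total counts, 3 with no filter or DESeq2, 6 with no minimum fold, 13 at 0.05 and 0 to 2 without single libraries (0 without 10 µM replicate 1). At 10 against 2 µM they were 3 with total counts, 16 with no minimum fold, 20 at 0.05 and 7 to 10 without single libraries. Of all genes, 4.16, 13.9 and 23.4% passed 0.05 with any fold in the 3 comparisons. Over all genes, calls at 2 against 0 µM went from 71 to 109 by DESeq2 and to 6 to 144 without single libraries. Calls at 10 against 0 µM went from 442 (279 higher, 163 lower) to 914 with total counts (846 higher, 68 lower) and 504 by DESeq2 (235 higher, 269 lower). They were 560 with no filter (275 higher, 285 lower) and 266 to 633 without single 0 or 2 µM libraries. Calls at 10 against 2 µM went from 788 to 1007 with total counts (923 higher, 84 lower) and 894 with no filter. Without single 0 or 2 µM libraries they were 515 to 884. The cause of these moves was not tested.

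The replicate numbers of the labels did not pair the samples. Deviations of same-numbered 0 and 2 µM libraries correlated at 0.199, 0.0845 and 0.161 across genes, and each of these libraries correlated best with its own number, a hint from the data and not from the design. Same-numbered 10 µM libraries correlated at -0.145 and -0.105 with those of 0 µM and at -0.0212 and -0.0610 with those of 2 µM. With the number as a replicate block, Ung at 10 against 0 µM was -0.84 (adjusted p = 0.00687 by edgeR's quasi-likelihood test), Ogg1 -0.016 and Mutyh -0.020, the other repair genes had 4 calls at 10 against 2 µM, and S-phase genes 2 at 10 against 0 µM. Depth limits Neil1, Mutyh and Ung most, and 10 µM rests on 2 libraries.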
